A study of Rattus norvegicus with 8 samples.

Results

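GABA, the main inhibitory transmitter of the brain, is made, packaged, taken up and degraded by the products of a small set of genes. The 8 examined here encode both GABA-synthesizing enzymes (Gad1, Gad2), the vesicular transporter (Slc32a1), a pair of plasma membrane transporters (Slc6a11, Slc6a13) and 3 enzymes of GABA breakdown and related aldehyde oxidation (Abat, Aldh5a1, Aldh9a1). They were chosen as genes of this pathway, and every probe set annotated to exactly 1 of them was taken. All 8 genes had at least 1 such probe set, out of 13810 genes named in this way in the series. Together they gave 13 probe sets of 31142, with 10 on chip A and 3 on chip B, and no filter on low values was applied.

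Glutamate decarboxylase converts glutamate to GABA. Its larger form, encoded by Gad1, is found throughout the cell, and its smaller form, encoded by Gad2, is enriched at nerve endings. GABA released from neurons is cleared by transporters of the Slc6 family on neurons and glia. GABA transaminase (Abat) and succinic semialdehyde dehydrogenase (Aldh5a1) then feed its carbon into the citrate cycle, a route known as the GABA shunt. Cells of the oligodendrocyte lineage respond to GABA through their own receptors, and precursor cells of this lineage have been reported to hold GABA-synthesizing enzymes.

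The cells came from rat brain at postnatal day 7 and were sorted by flow cytometry as A2B5/OTMP+, which the labels describe as perineuronal oligodendrocytes. A2B5 is a ganglioside epitope of glial precursors. All 8 samples are of this single population, 4 biological replicates on each of 2 Affymetrix array types (chip A and chip B), and there was no control group. Strain, sex and how many animals made up a replicate are not named in the labels used here. The p-values weigh each mean difference from the reference, described below, against the spread between these replicates only. An error in the reference common to the arrays would not show in them.

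Each deposited value sets the signal of a probe set against a reference that is not identified, as a linear ratio. A ratio of 1 means the signal of that reference, and a high ratio does not mean an abundant transcript. The array medians lay between 0.903 and 0.946 on chip A and between 0.888 and 0.967 on chip B. The log2 ratios, averaged over 4 arrays and given as mean ± SD (n = 4), were tested with limma against 0, a ratio of 1, with Benjamini-Hochberg adjustment over all 15866 or 15276 probe sets of the array type. A probe set was called higher or lower at an adjusted p under 0.05. The labelled cell type was compared with its markers. Of 17 probe sets of oligodendrocyte lineage genes on chip A, 1 was called higher and 2 lower. Of 17 astrocyte probe sets 13 were called higher and 1 lower, against 9.21% and 30.1% of all chip A probe sets. On chip B 0 of 4 oligodendrocyte lineage probe sets were called higher and 1 lower, against 5.08% and 27.1% of all. The 2 astrocyte ones there split, with Fgfr3 higher at 1.61 ± 0.11 and Sox9 lower at -1.73 ± 0.01. Most astrocyte probe sets of chip A, and few of the oligodendrocyte lineage, were thus called above the reference. Ratios cannot show whether either set was expressed.

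Of the 13 probe sets of GABA genes, 4 were called higher than a ratio of 1, 4 were called lower and 5 were not called. On chip A 3 of 10 were higher and 3 lower, against 9.21% and 30.1% of all probe sets. On chip B 1 of 3 was higher and 1 lower, against 5.08% and 27.1%. The median of the mean log2 ratios was 0.08 for the 13 probe sets and -0.11 for all probe sets. The pathway therefore did not stand to one side of the reference. One Gad1 probe set was far above it, Slc6a13 was above it in all 4 replicates without passing the test, and the remaining probe sets lay within about 1 log2 unit of it. In RNA from a sorted population, fewer cells of a type and less RNA per cell cannot be told apart.

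**Figure D1:**
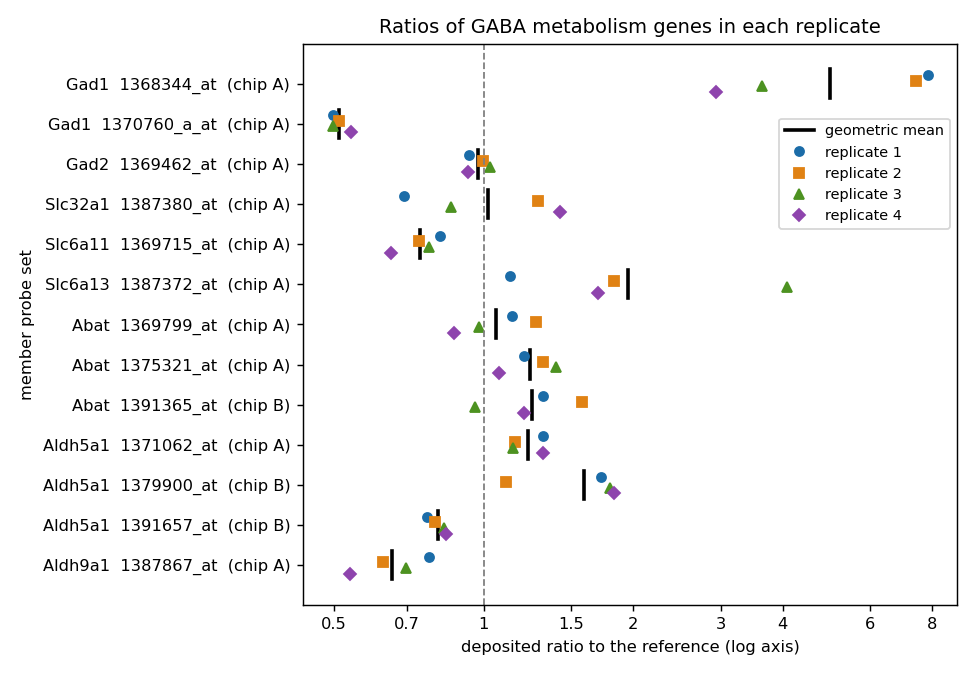
Deposited ratio of each of the 13 probe sets of GABA genes in each replicate, on a log axis, with a coloured symbol per replicate, a black bar for the geometric mean and a dashed line at a ratio of 1. Gad1 probe set 1368344_at lies between 2.943 and 7.843, apart from the other Gad1 probe set at 0.496 to 0.54, and Slc6a13 spreads from 1.132 to 4.08.

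Synthesis genes held both extremes of the set. Gad1 is represented by a pair of probe sets on chip A. Probe set 1368344_at had ratios of 7.843, 7.412, 3.638 and 2.943 in replicates 1, 2, 3 and 4. All 4 arrays were well above 1, and replicates 1 and 2 lay higher than replicates 3 and 4. Its geometric mean ratio was 4.99, with a log2 ratio of 2.32 ± 0.72 (n = 4; 95% interval 1.62 to 3.02; limma adjusted p = 0.00192). That mean exceeded those of 99.7% of the probe sets on chip A, and its SD exceeded 97.8% of theirs. The call held with each replicate left out, with means from 2.10 to 2.57.

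The other Gad1 probe set, 1370760_a_at, was low and even. Its ratios were 0.496, 0.512, 0.498 and 0.54 in replicates 1 to 4. No array came near 1, and the highest was only 1.09 times the lowest. On the log2 scale the mean was -0.97 ± 0.06 (n = 4; limma adjusted p = 0.000223), lower than a ratio of 1. Its values did not follow those of 1368344_at, since replicate 4 was the highest here and the lowest there. The suffix _a_at is used by Affymetrix for probe sets that detect several transcripts of a gene. The annotation ties 1368344_at to a RefSeq transcript of Gad1 and 1370760_a_at to an older sequence entry that is not among the 4 RefSeq transcripts of the gene. The means of the pair differed by 3.29 log2 units, more than in 99.6% of the 1868 genes with several probe sets on chip A, whose median difference was 0.42. In 90 of those genes (4.82%) probe sets were called in both directions. Lower calls were common on chip A, at 30.1% of all probe sets. Among 57 control probe sets 18 were called lower and 1 higher when controls were kept in the fit. Of 86 probe sets of genes of other organs, 44 were called lower (51.2%) and 2 higher. A lower call thus does not tell a low transcript from an undetected one. Ratios cannot tell whether 1370760_a_at detected its transcript.

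Gad2 lay at the reference. Its single probe set had ratios of 0.936, 0.995, 1.032 and 0.929 in replicates 1 to 4, within 1.11-fold of each other. The mean log2 ratio was -0.04 ± 0.07 (n = 4; 95% interval -0.21 to 0.12; limma adjusted p = 0.663). This interval leaves no room for a ratio as far from 1 as that of either Gad1 probe set. On the ratio scale Gad2 and Gad1 probe set 1368344_at did not overlap on any array, but a ratio does not give the relative abundance of the transcripts.

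Of the 3 transport genes 1 was called, Slc6a11, as lower, a share near the 30.1% of all chip A probe sets. Slc32a1 encodes the transporter that loads GABA and glycine into synaptic vesicles. It had ratios of 0.69, 1.288, 0.861 and 1.423, on either side of 1, with replicates 2 and 4 high and 1 and 3 low. The mean log2 ratio of 0.03 ± 0.49 (n = 4; 95% interval -0.46 to 0.52; limma adjusted p = 0.917) did not differ detectably from the reference. Replicate 2 was high for Gad1 1368344_at too, but replicate 1, the highest there, was the lowest here.

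Slc6a11 encodes GAT3, a GABA transporter that is mainly astrocytic in the brain. Its ratios were 0.817, 0.742, 0.776 and 0.652 in replicates 1 to 4, all below 1. This amounted to a mean log2 ratio of -0.43 ± 0.14 (n = 4; limma adjusted p = 0.00994), a geometric mean ratio of 0.744, and the probe set was called lower. It lay above 26.5% of the probe sets on chip A, and 30.1% of all probe sets were called lower, so this place is not far from the ordinary. The call held with each replicate left out, with means from -0.47 to -0.36. On the same arrays 13 of 17 astrocyte marker probe sets were called higher and 1 lower, in a list that does not hold Slc6a11. The part of astrocytes in the Slc6a11 ratio was not tested.

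Slc6a13 encodes GAT2, a GABA and taurine transporter known from the leptomeninges, liver and kidney. Its ratios were 1.132, 1.833, 4.08 and 1.702 in replicates 1 to 4. Every array was above 1, and replicate 3 was the highest by a wide margin. The mean log2 ratio was 0.96 ± 0.77 (n = 4; 95% interval 0.21 to 1.71), above 96.6% of the probe sets on chip A, and the adjusted p missed the threshold (limma adjusted p = 0.0528). Without replicate 1 the value was 1.22 and passed (limma adjusted p = 0.0321), and without replicate 3 it was 0.61 (0.0536). With the test limited to probe sets of exactly 1 gene the mean stayed at 0.96 and passed narrowly (0.0496). Of the members, it varied most between replicates, with a highest ratio 3.6 times the lowest.

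Genes of breakdown and related aldehyde oxidation held 7 of the 13 probe sets, and 3 were called higher and 2 lower, all by less than 1 log2 unit. On chip A 2 of 4 were higher and 1 lower, against 9.21% and 30.1% of all probe sets. The lower one there was Aldh9a1, which also belongs to a route that makes GABA. On chip B 1 of 3 was higher and 1 lower, against 5.08% and 27.1%. Abat encodes the mitochondrial transaminase that removes the amino group of GABA. Its chip A probe set 1375321_at had ratios of 1.208, 1.317, 1.4 and 1.073, all above 1, and was called higher at 0.31 ± 0.17 (n = 4; limma adjusted p = 0.037). The call was lost without replicate 1 (0.0935), 2 (0.114) or 3 (0.107) and with a trended, robust prior (0.0877), while the mean stayed between 0.26 and 0.39. The other Abat probe sets were not called. On chip A 1369799_at stood at 0.08 ± 0.24 (n = 4; limma adjusted p = 0.617), with ratios from 0.872 to 1.274. On chip B 1391365_at stood at 0.32 ± 0.30 (n = 4; limma adjusted p = 0.139), with ratios from 0.962 to 1.58. It passed only without replicate 3 (mean 0.44, 0.0482). The 3 Abat means thus lay within 0.08 to 0.32, close to each other and a little above the reference.

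Aldh5a1 encodes the dehydrogenase that oxidizes succinic semialdehyde to succinate, and its 3 probe sets did not agree. On chip A 1371062_at had ratios of 1.316, 1.157, 1.144 and 1.316 and a mean log2 ratio of 0.30 ± 0.11 (n = 4; limma adjusted p = 0.0252), called higher. On chip B 1379900_at had ratios of 1.727, 1.111, 1.8 and 1.831, with 3 arrays close together and replicate 2 near 1. It was called higher at 0.67 ± 0.34 (n = 4; limma adjusted p = 0.0269). Also on chip B, 1391657_at had ratios of 0.769, 0.798, 0.83 and 0.84, all below 1, and was called lower at -0.31 ± 0.06 (n = 4; limma adjusted p = 0.00737). The arrays of this pair on chip B did not overlap. Probe sets called in both directions occurred in 34 of the 1438 genes with several probe sets on chip B (2.36%). The higher calls were the less stable ones. That of 1371062_at was lost without replicate 1, 2 or 4 (limma adjusted p = 0.0972, 0.0546 and 0.093), and that of 1379900_at without replicate 1, 3 or 4 (0.112, 0.0848 and 0.098). The lower call of 1391657_at held throughout, with means from -0.32 to -0.28.

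Aldh9a1 encodes an aldehyde dehydrogenase that oxidizes gamma-aminobutyraldehyde, by which GABA can also be made from putrescine. Its ratios were 0.776, 0.626, 0.696 and 0.538 in replicates 1 to 4, below 1 on every array. Averaged over replicates the log2 ratio was -0.61 ± 0.23 (n = 4; limma adjusted p = 0.00701), a geometric mean ratio of 0.653, and it was called lower. It lay above 17.4% of the probe sets on chip A, and the call held with each replicate left out, with means from -0.70 to -0.52.

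**Figure D2:**
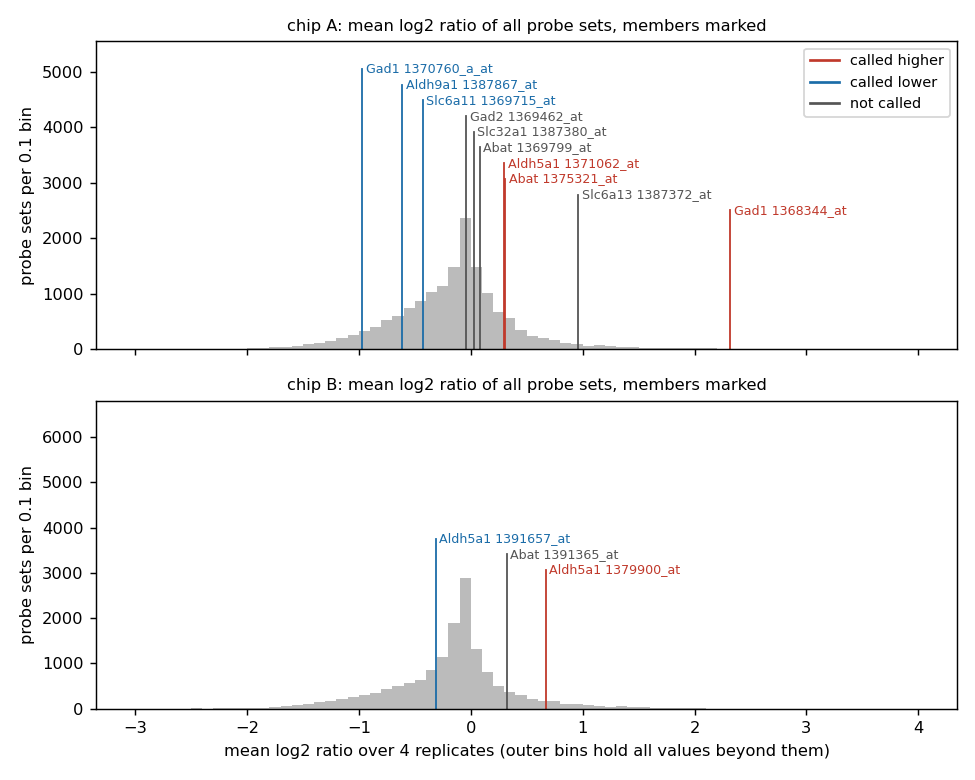
Histograms of the mean log2 ratio of all 15866 chip A and 15276 chip B probe sets in bins of 0.1, with a vertical line for each probe set of a GABA gene, coloured by its call. Gad1 1368344_at at 2.32 and Slc6a13 at 0.96 lie above 99.7% and 96.6% of chip A probe sets, Aldh5a1 1379900_at lies above 94.2% of those of chip B, and Gad1 1370760_a_at lies above only 7.0% of those of chip A.

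By mean log2 ratio on chip A the order from the top was Gad1 (1368344_at), Slc6a13, Abat (1375321_at), Aldh5a1, Abat (1369799_at), Slc32a1, Gad2, Slc6a11, Aldh9a1 and Gad1 (1370760_a_at). Neighbours in this order overlapped in their ratios with 1 exception. Gad1 1368344_at and Slc6a13 shared the range from 2.943 to 4.08, and Slc6a13 reached down to 1.132, into the range of Abat 1375321_at. The ratios of Aldh5a1 1371062_at lay inside those of Abat 1375321_at, and those of Gad2 and of Abat 1369799_at lay inside those of Slc32a1. The exception was Gad2, whose lowest array (0.929) was above the highest of Slc6a11 (0.817). Slc6a11 and Aldh9a1 shared 0.652 to 0.776, and Gad1 1370760_a_at just reached the lowest array of Aldh9a1 (0.538). This is an order of ratios to the reference and not of transcript levels. Array medians were a little under 1, and centring on them added 0.12 to the log2 ratios of chip A and 0.10 to those of chip B. Against that baseline each of the 8 called probe sets kept its call and direction and the 5 others remained uncalled, where 11.8% of chip A probe sets were higher and 23.3% lower, with 5.68% and 23.7% for chip B. A stricter baseline was the 95th percentile of probe sets of genes from other organs, at ratios of 1.25 to 1.73 on chip A arrays. Of the 86 panel probe sets on chip A 2 were themselves called higher, Itih3 at 2.13 ± 0.28 and Slc22a6 at 0.93 ± 0.53. The level is therefore not purely one of absent transcripts. With only 5 such probe sets on chip B, its level was carried over from the same-numbered chip A array by the median difference of 100 shared probe sets. Only Gad1 1368344_at among the 13 was higher than that level in limma, and 7 were lower. Of all probe sets 3.54% were higher and 76.0% lower by this rule for chip A, and 3.95% and 63.4% for chip B.

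The 3 named probe sets closest to Gad1 1368344_at over the 4 replicates, by Euclidean distance of log2 ratios, belonged to Aldh1l1 (0.84), Tnik (0.88) and Ntrk2 (0.92). Aldh1l1, a folate enzyme gene used as an astrocyte marker, had ratios of 7.53, 6.392, 6.31 and 3.337. Tnik, a kinase gene, had 7.187, 4.604, 2.538 and 2.706, and Ntrk2, the receptor gene for brain-derived neurotrophic factor, had 6.373, 4.467, 2.864 and 3.678. Replicate 1 was the highest array in all 3, as it was for Gad1, but a likeness over 4 arrays rests mainly on a similar mean. On chip B the closest to Aldh5a1 1379900_at were Tmem130 (0.24), Adamts5 (0.28) and P2rx7 (0.29). Replicate 2 was the lowest array for each of them too, at ratios of 1.272, 1.267 and 1.251, but they were picked by closeness over these same arrays.

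Neuronal and glial markers were set beside the members because neurons that make GABA and astrocytes that take it up could both be present after sorting. Among GABAergic interneuron genes, 13 of 18 were measured with 15 probe sets, of which 1 was called higher and 3 lower. All of these calls were among the 12 on chip A (8.33% and 25.0%), shares near the 9.21% and 30.1% of all probe sets. The homeobox gene Dlx5 was higher at 0.42 ± 0.28 (n = 4; limma adjusted p = 0.0432), a call lost without replicate 1, 3 or 4 (0.134, 0.129 and 0.11). The neuropeptide genes Tac1 at -1.63 ± 0.10, Vip at -0.82 ± 0.06 and Sst at -0.70 ± 0.06 were lower (n = 4; limma adjusted p from 0.000102 to 0.000671). Of 86 chip A probe sets of genes of other organs, 44 were called lower too (51.2%). These calls therefore do not show whether the peptide transcripts were detected. Parvalbumin (Pvalb) stood at -0.10 ± 0.05 (0.247) and Dlx1 at 0.24 ± 0.27 (0.203), neither called. The mean log2 ratio of the 12 interneuron probe sets on chip A was -0.10, -0.20, -0.22 and -0.24 in replicates 1 to 4. All 4 were below 0, in the same replicate order as Gad1 1368344_at. The medians of the same 12, at -0.02, 0.06, -0.14 and -0.06, were not in that order. The 3 interneuron probe sets on chip B averaged 0.43, -0.55, 0.8 and 0.06, with replicate 2 the lowest. The part of interneurons in the Gad1 ratio was not tested.

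Of 21 probe sets of general neuronal genes on chip A, 9 were called higher and 1 lower, led by the RNA-binding protein gene Elavl4 at 1.81 ± 0.68, the synaptic gene Snap25 at 1.70 ± 0.70 and the vesicular glutamate transporter gene Slc17a6 at 1.39 ± 0.31 (n = 4; limma adjusted p from 0.00078 to 0.00577). On chip B 0 of 4 were called higher in limma and 2 lower (0 and 4 at an unadjusted p under 0.05), Neurod6 at -0.56 ± 0.13 (0.00334) and Syt1 at -0.45 ± 0.03 (0.00127). The mean log2 ratio of the 21 was 0.84, 0.38, 0.57 and 0.51 in replicates 1 to 4. The 17 astrocyte probe sets had means of 1.55, 1.12, 1.48 and 1.12. Replicate 1 was highest in both lists, as it was for Gad1 1368344_at, but replicate 2, nearly as high for Gad1, was at the bottom of the neuronal list and level with replicate 4 in the astrocyte list. The part of neurons or astrocytes in the Gad1 ratio was not tested.

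For Slc6a13 the corresponding lists were those of the leptomeninges and vessel wall, the endothelium and the choroid plexus. Of 19 leptomeningeal, fibroblast and mural probe sets on chip A, 5 were called higher (26.3%) and 3 lower (15.8%). Of all chip A probe sets 9.21% were called higher and 30.1% lower. The highest in the list was the sulfate transporter gene Slc13a4 at 1.18 ± 0.52 (n = 4; limma adjusted p = 0.00752). The lowest was an Igf2 probe set at -1.73 ± 0.06 (n = 4; limma adjusted p = 9.73e-05). Another Igf2 probe set was called higher, at 0.84 ± 0.39 (0.0104). Acta2 at -0.41 ± 0.20 (0.0228) and Foxc1 at -0.36 ± 0.20 (0.033) were lower too, but not against the array median. The mean log2 ratio of the 19 was 0.01, 0.03, 0.46 and 0.34 in replicates 1 to 4. Replicate 3, the highest for Slc6a13, was thus also the highest here. The 3 probe sets of this list on chip B averaged 0.32, 0.44, 0.13 and 0.46, with replicate 3 the lowest. None of 9 endothelial probe sets was called by limma (unadjusted p was under 0.05 for 0 of them), and their means were -0.57, 0.59, 0.31 and 0.19. Of 4 choroid plexus and ependymal probe sets 2 were called higher, with means of 0.39, 0.91, 0.23 and 0.68, and replicate 3 the lowest. The part of these cell types in the Slc6a13 ratio was not tested.

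**Figure D3:**
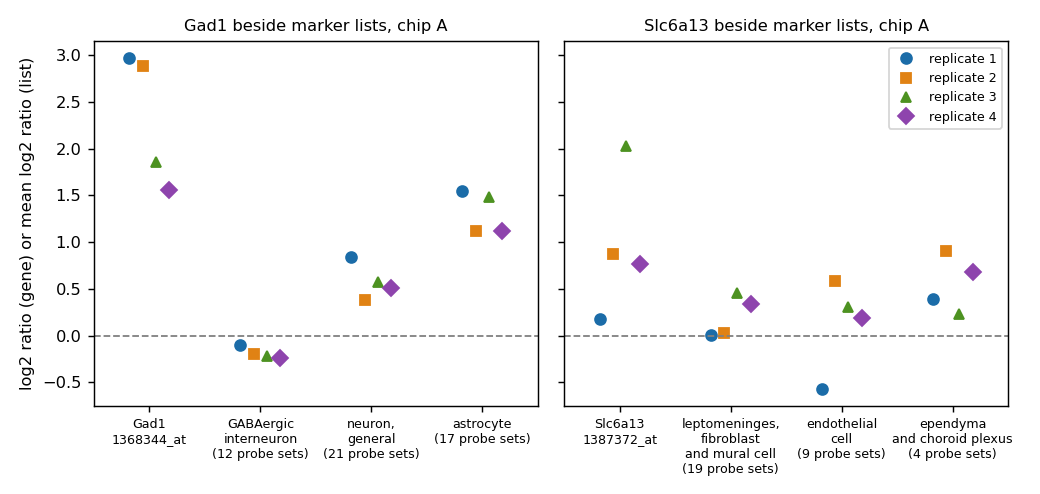
Log2 ratio of Gad1 1368344_at (left) and Slc6a13 (right) in each replicate on chip A, beside the mean log2 ratio of marker lists in the same replicate, with the dashed line at a ratio of 1. Gad1 is high in replicates 1 and 2 while the 12 interneuron probe sets average between -0.24 and -0.10, and replicate 3 is highest for Slc6a13 and for the leptomeningeal list on chip A (0.46).

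Genes that supply or receive the substrates of GABA metabolism were read in the same way. Among glutamate and glutamine supply genes, 12 of 13 were measured, all on chip A, and of 22 probe sets 8 were called higher (36.4%, against 9.21% of all) and 3 lower. Their median mean log2 ratio was 0.45. The glial glutamate transporter genes Slc1a2 at 2.34 ± 0.92 and Slc1a3 at 2.0 ± 1.44, the glutamate dehydrogenase gene Glud1 at 1.19 ± 0.10 and the glutamine transporter gene Slc38a3 at 0.64 ± 0.38 were higher (n = 4; limma adjusted p from 0.00017 to 0.0362). The glutamine synthetase gene Glul at -0.56 ± 0.31 (n = 4; limma adjusted p = 0.0219) and the aminotransferase gene Got2 at -0.45 ± 0.17 (0.0112) were lower, as was another Slc1a3 probe set at -0.28 ± 0.07 (0.0219). Slc1a3 had another higher probe set at 1.19 ± 0.11 (n = 4; limma adjusted p = 0.000175), which kept its call with each replicate left out. The higher call of the first was lost without replicate 1 (0.104) or 3 (0.0964), and that of Slc38a3 without replicate 4 (0.0865). The lower calls of Glul and Slc1a3 were lost without replicate 1, 2 or 4 (0.0571 to 0.0873) and against the array median. Glul and Got2 also had uncalled probe sets on the other side of 1, at 0.17 and 0.49. Another Slc1a2 probe set stood at 0.50 ± 0.59 (n = 4; limma adjusted p = 0.148) and was not called.

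The listed citrate cycle genes, which lie beside the GABA shunt, mostly had ratios below 1. Of 12 probe sets of these 9 genes, 0 were called higher and 7 lower in limma (0 and 7 at an unadjusted p under 0.05), with a median of -0.24. On chip A 6 of 10 were lower (60.0%, against 30.1% of all). They were led by the succinate dehydrogenase subunit genes Sdhb at -0.65 ± 0.34 and Sdhd at -0.52 ± 0.16 and the succinyl-CoA synthetase genes Sucla2 at -0.44 ± 0.16 and Suclg1 at -0.43 ± 0.20 (n = 4; limma adjusted p from 0.00606 to 0.0191). Against the array median 4 of the 12 were lower, where 23.3% of all chip A and 23.7% of all chip B probe sets were. Suclg1, whose call was also lost without replicate 4 (0.0689), was not among the 4.

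The other way of disposing of succinic semialdehyde is its reduction to gamma-hydroxybutyrate. The reductase gene Akr7a2 was lower at -0.70 ± 0.08 (n = 4; limma adjusted p = 0.000824), and so was the chip B probe set of Adhfe1, a gene for the enzyme that oxidizes gamma-hydroxybutyrate, at -1.01 ± 0.07 (0.000151). The chip A probe set of Adhfe1 stood at 0.39 ± 0.42 (0.128) and was not called. The polyamine route to GABA, to which Aldh9a1 belongs, had 13 probe sets for 10 genes, of which 0 were called higher and 4 lower in limma (0 and 6 at an unadjusted p under 0.05), with a median of -0.17. They belonged to Aoc1 (diamine oxidase) at -0.76 ± 0.06, Azin1 at -0.51 ± 0.09, Maob (monoamine oxidase B) at -0.50 ± 0.16 and Oaz1 at -0.40 ± 0.20 (n = 4; limma adjusted p from 0.000495 to 0.0231). The call of Oaz1 was lost without replicate 1 (0.0822) or 4 (0.0726). That of Azin1 was from chip B, and its chip A probe sets, at -0.07 and -0.35, were not called. On chip A 3 of 11 were lower (27.3%), a share near the 30.1% of all probe sets. Of 4 related transporter genes, 2 were measured, the taurine transporter gene Slc6a6 and the creatine transporter gene Slc6a8, and 0 of their 4 probe sets were called in limma, with means from -0.43 to 0.27. At an unadjusted p under 0.05, 1 of them was higher (Slc6a8, at 0.27) and 0 were lower. None of the 3 genes listed for pyridoxal phosphate supply was analysed here.

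**Figure D4:**
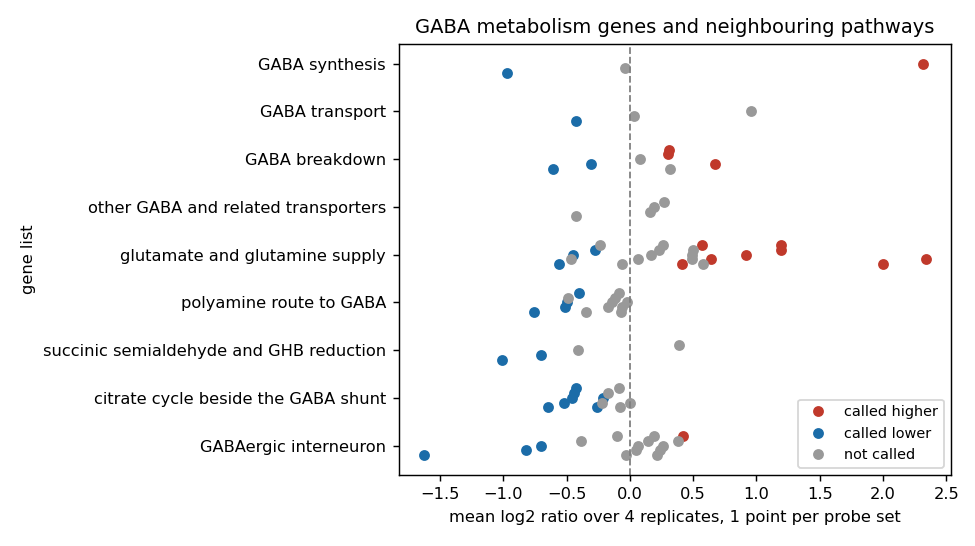
Mean log2 ratio over 4 replicates of each probe set in the lists of GABA genes and of neighbouring pathways, coloured by its limma call, with the dashed line at a ratio of 1. The GABA lists spread to both sides of 1, glutamate supply reaches 2.34 on the right, and the called citrate cycle probe sets all lie on the left, down to -0.65.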

How the data were processed

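Total RNA was extracted with a Qiagen kit, biotin-labelled by an Affymetrix small-sample protocol and hybridized to chip A or chip B, per the labels' protocols. The submitters' processing notes name RMA and no version of it. What the authors deposited are linear ratios, whose reference and any floor are not given in the sources used here. Exact ratios of 1 on at least 1 array occurred in 23.0% of chip B probe sets, against 1.27% for 0.99.

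Ratios were turned into log2 values and fitted per array type with limma 3.58.1 in R 4.3.3 (intercept, eBayes), leaving out 57 control probe sets on each type. The script was tested on simulated data. Names came from the platform annotation, which gave 1 gene for 12783 chip A and 7564 chip B probe sets, several for 312 and 100, and none for 2771 and 7612. The number of arrays limits precision.

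Named were all members, of each pathway list up to 4 called genes per direction, of marker lists that bear on a member some of the highest and lowest genes, and the 3 probe sets nearest to the most extreme member of each type. Pvalb and Dlx1 were named after their values were seen. Members and lists were chosen with earlier results of these data known. The 13 alternatives changed the baseline, prior, scale, probe sets, weights, normalization or replicates. Same-numbered arrays of both types deviated together over 100 shared probe sets (r from 0.736 to 0.823), but the types were not compared.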

Additional observations from a re-analysis of the deposited data

Results flagged for a closer look

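Of the 13 probe sets of GABA genes, 1 had an array far from the other 3 of its type. For Aldh5a1 1379900_at on chip B, replicate 2 had a ratio of 1.111 against 1.727, 1.8 and 1.831, and its gap to the nearest array was 0.883 of the whole range on the log2 scale, above Dixon's critical value for 4 arrays. Chance alone flags about 1 in 20 such groups. Without replicate 2 the mean log2 ratio was 0.84 (limma adjusted p = 0.00253), against 0.67 with all 4 arrays.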

How the results depend on the processing

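Over 13 alternatives, 5 of the 8 calls kept direction and significance in each: both Gad1 probe sets, Slc6a11, Aldh9a1 and Aldh5a1 1391657_at. The higher calls of Abat 1375321_at, Aldh5a1 1371062_at and Aldh5a1 1379900_at each failed in several. On chip A the 3 higher calls became 1 with a trended, robust prior and 1 or 2 with any replicate left out (1 without replicate 2). Without replicate 1 the 2 were Gad1 1368344_at and Slc6a13 (limma adjusted p = 0.0321), which was not called with all arrays. On chip B the 1 higher call became 0 without moderation of the variance and with quantile normalization (0.71, limma adjusted p = 0.051), with 1 at an unadjusted p under 0.05 in both, and between 0 and 1 with a replicate left out. With the 95th percentile of genes from other organs as the baseline (carried over to chip B from the same-numbered chip A array), 1 probe set on chip A (Gad1 1368344_at) and 0 on chip B were higher in limma (1 and 0 at an unadjusted p under 0.05), and 6 on chip A were lower. By construction this lowered every value: Slc32a1 to -0.46, Abat to -0.41, -0.18 and -0.08 (1369799_at, 1375321_at, 1391365_at) and Aldh5a1 1371062_at to -0.19 turned negative. Gad2 turned to 0.08 against the array median, and without a replicate Slc32a1 ran from -0.13 to 0.22 and Abat 1369799_at from -0.01 to 0.17. The 70 probe sets of the pathway and interneuron lists had 9 higher and 19 lower calls. The higher calls numbered 5 with that panel baseline, 2 without moderation and 5 with quantile normalization, and the lower calls 42 with the panel baseline. The cause of the changes under the prior, moderation and quantile settings was not tested. No paired analysis was possible because no comparison sets chip A against chip B and no member probe set is on both. Signal over background cannot be read from ratios.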

Other observations

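Slc22a6, an organic anion transporter gene of kidney that was listed among genes of other organs, had ratios of 1.223, 1.903, 3.012 and 1.898 in replicates 1 to 4, and was singled out after its values were seen. Like Slc6a13 it was lowest in replicate 1 and highest in replicate 3. Its mean log2 ratio was 0.93 ± 0.53 (n = 4; limma adjusted p = 0.0189). Slc13a4 was lowest in replicate 1 as well, at a ratio of 1.515, but highest in replicate 2, at 3.517.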
